A study of Rattus norvegicus with 2 samples.

Results

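Iron handling in the retina was described here through 10 genes for the oxidation, import, transport, export, storage and scavenging of iron. They are the ferroxidase genes *Cp* and *Heph*, the importer gene *Slc11a2*, transferrin (*Tf*) and its receptor (*Tfrc*), the exporter gene *Slc40a1*, the ferritin genes *Fth1* and *Ftl1*, the hormone gene *Hamp* and the heme scavenger gene *Hpx*. They were chosen by symbol from a table of 32662 rat genes, and all 10 were found, each once. The study compared retinas of Long-Evans rats aged 2 months by RNA-seq after depletion of ribosomal RNA. CTRL is a retinal sample taken after a sham procedure, and IR12 is a retinal sample taken 12 hours after reperfusion that followed ischemia. The rats were female, and the methods name as many retinas as libraries. Each group has 1 library, so no difference below has a replicate check, and no p-value was computed.

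Iron enters most cells when transferrin, which carries ferric iron, binds the transferrin receptor and is taken into endosomes, from which the divalent metal transporter encoded by *Slc11a2* moves iron into the cytosol. Iron that is not used is stored in ferritin, a shell of heavy and light chains, or leaves the cell through ferroportin, the product of *Slc40a1*, with the help of the copper ferroxidases ceruloplasmin and hephaestin. Hepcidin, the product of *Hamp*, removes ferroportin from the cell surface, and loss of both ferroxidases in mice is known to lead to iron accumulation in the retina.

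Expression was deposited as FPKM, a level per length of transcript and per mapped read of the library, so that levels can be compared between genes. Rod photoreceptor markers were high in both libraries, which are labelled as retina, and none of the 6 was past 2-fold as deposited. *Gnat1* had an FPKM of 4027 in CTRL and of 4237 in IR12, and the lowest of the rod markers, *Nrl*, had 54.1 and 39.4. Together the rod markers summed to an FPKM of 14885 in CTRL and of 18294 in IR12. Between the libraries, the difference of a gene was computed as the log2 ratio of (FPKM + 1), IR12 over CTRL, and a gene was counted as higher or lower when it was at least 2-fold apart on this scale. The scale understates the difference of low genes. Genes with an FPKM under 1 in both libraries were left out of such counts.

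The libraries stood apart in their depth and in markers of several cell types. At a locus length of 939 bases, a single read stood for 0.0881 FPKM in CTRL but for 0.0516 FPKM in IR12, so IR12 rests on more reads. All 6 markers of Müller glia and all 6 markers of lens were at least 2-fold lower in IR12, while 5 of 9 leukocyte markers were at least 2-fold higher. In a mixed tissue, fewer cells of a type and less RNA per cell cannot be told apart.

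Of the 10 iron handling genes, 6 had an FPKM of at least 1 in a library. Among these 6, *Slc11a2* was at least 2-fold higher in IR12 (16.7%, compared with 6.56% of the 13599 genes counted), and *Heph* and *Tfrc* were at least 2-fold lower (33.3%, compared with 6.12%). *Cp*, *Tf* and *Fth1* were within 2-fold. The shares of the iron handling genes thus rest on 1 and 2 genes, and the log2 ratios of *Slc11a2* (1.06) and *Tfrc* (-1.01) lie just past the limit of 2-fold. The median log2 ratio of the 6 genes was 0.10, compared with 0.02 over all genes counted, and the ratios ranged from -1.44 to 1.06.

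The counts depend on how the libraries are scaled. As deposited, 892 genes lay at least 2-fold higher and 832 at least 2-fold lower in IR12. With the FPKM of each library rescaled to the same sum (TPM scale), the median log2 ratio of genes with an FPKM of at least 1 in both libraries moved from 0.03 to 0.60, and the counts became 2817 and 436. On that scale *Slc11a2* was still at least 2-fold higher, at 1.68, but none of the 6 iron handling genes was at least 2-fold lower. Small non-coding RNA genes hold 68.1% of the FPKM sum in CTRL and 46.4% in IR12.

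**Figure D1:**
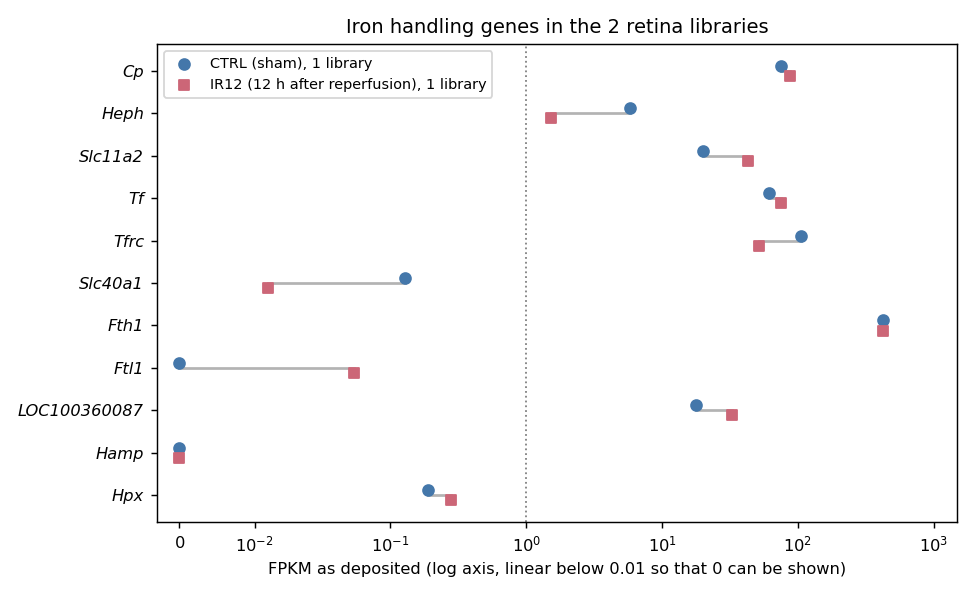
FPKM of each iron handling gene and of the row *LOC100360087* in CTRL (circles) and IR12 (squares), 1 library each, on a log axis that is linear near 0. *Heph* and *Tfrc* lie lower in IR12 and *Slc11a2* lies higher, while the pairs of *Cp*, *Tf* and *Fth1* lie close together.

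The plot of FPKM by gene and library shows the order of the levels. In CTRL, *Fth1* had the highest FPKM, followed by *Tfrc*, *Cp*, *Tf*, *Slc11a2* and *Heph*. In IR12, *Cp* and *Tf* lay above *Tfrc*, and *Fth1*, *Slc11a2* and *Heph* had the same places. Whether neighbours in this order differ beyond the spread between animals was not tested, because there are no replicates.

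*Cp* encodes ceruloplasmin, a copper ferroxidase that is secreted or held on the cell surface. Its locus lies on chromosome 2 from 104744461 to 104830898 of the rn6 assembly, to which all loci below refer unless another assembly is named. *Cp* had an FPKM of 75.7 in CTRL and of 87.6 in IR12, and so was 1.16 times as high in IR12, with a log2 ratio of 0.21. By level it ranked at percentile 90.0 of the genes counted in CTRL and at percentile 91.4 in IR12. The table lists *Hps3* at the same locus with a separate FPKM of 21.0 in CTRL and of 19.3 in IR12, and how reads were divided between overlapping genes is not given in the sources used here.

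*Heph* encodes hephaestin, a membrane-bound copper ferroxidase related to ceruloplasmin, and lies on chromosome X from 65563122 to 65658516. Its FPKM was 5.80 in CTRL and 1.51 in IR12. It was the iron handling gene with the lowest ratio, 3.84-fold lower in IR12 by FPKM and -1.44 on the log2 scale, where 96.5% of the genes counted had a higher ratio. With a transcript of 939 bases these levels would come from 65.8 reads in CTRL and 29.3 reads in IR12, and a longer transcript would hold more. *Heph* was at -0.93 on the TPM scale, inside 2-fold, while the median gene was at 0.60. Of the paralog *Hephl1*, which encodes a further ferroxidase, the FPKM was 3.43 in CTRL and 0.832 in IR12, also at least 2-fold lower.

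The 5 genes whose pair of log2(FPKM + 1) values lay nearest to that of *Heph*, by Euclidean distance over the 2 libraries, were *Pygl*, *AABR07069490.1*, *Bfsp1*, *Pon3* and *AC094643.2*. *Pygl*, which encodes a glycogen phosphorylase, was the nearest, with an FPKM of 5.99 in CTRL and of 1.58 in IR12 and a distance of 0.0548. *Bfsp1*, one of the lens markers, had an FPKM of 6.29 in CTRL and of 1.50 in IR12. With 2 libraries this likeness says no more than that the levels were similar.

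*Slc11a2* encodes the divalent metal transporter DMT1, which carries ferrous iron across the endosomal and plasma membranes. The gene lies on chromosome 7 from 142025815 to 142063212, a locus that the table also lists for *AABR07058899.1*, which was at 0 in both libraries. Its FPKM was 20.2 in CTRL and 43.1 in IR12, which is a log2 ratio of 1.06 and 2.14 times the level in CTRL. A higher ratio was found for 6.04% of the genes counted. Its level moved from the 62.4th percentile of the genes counted in CTRL to the 79.9th in IR12. With small non-coding RNA genes left out and both libraries rescaled to the same sum, the log2 ratio was 0.96, just inside 2-fold.

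*Tf* encodes transferrin, the carrier of ferric iron, and lies on chromosome 8 from 111673547 to 111721333. Its FPKM was 61.5 in CTRL and 74.8 in IR12, with a log2 ratio of 0.28. The gene of its receptor, *Tfrc*, lies on chromosome 11 from 71397383 to 71419223. *Tfrc* had an FPKM of 105.5 in CTRL and of 52.1 in IR12, and was 2.03-fold lower in IR12 with a log2 ratio of -1.01. Of the genes counted, 93.9% had a higher ratio than *Tfrc*. The ligand and its receptor thus lay on opposite sides of 0. On the TPM scale *Tf* was at 0.91 and *Tfrc* at -0.37, so the receptor was inside 2-fold there, and still below the median gene.

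Promoter sequences are shown for *Tfrc* and *Slc11a2*, the receptor and the importer of the same uptake route, which differed in opposite directions. RefSeq entries of the GRCr8 assembly gave windows for 8 of the 10 genes, with 9 windows in all because *Slc11a2* has a pair of starts. *Fth1* and *Ftl1* are the other two. Each window below holds the 250 bases before the start, written 5′ to 3′ on the strand of the gene. The window of *Tfrc* is chr11:81690319-81690568 on the minus strand, and those of *Slc11a2* are chr7:133417789-133418038 and chr7:133418940-133419189, both on the minus strand. Capitals mark the letters ACGTG, the core that hypoxia-inducible factors bind.
Tfrc: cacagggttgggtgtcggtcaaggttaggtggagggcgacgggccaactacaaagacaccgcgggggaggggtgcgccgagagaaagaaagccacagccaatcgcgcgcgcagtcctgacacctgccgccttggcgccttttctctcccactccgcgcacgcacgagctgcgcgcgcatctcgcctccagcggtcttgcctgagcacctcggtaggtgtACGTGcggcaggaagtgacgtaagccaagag
Slc11a2, first window: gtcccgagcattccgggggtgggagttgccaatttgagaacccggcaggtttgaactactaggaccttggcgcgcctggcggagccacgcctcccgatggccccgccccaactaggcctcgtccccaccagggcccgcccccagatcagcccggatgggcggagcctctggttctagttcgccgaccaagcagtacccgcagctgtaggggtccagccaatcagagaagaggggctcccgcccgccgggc
Slc11a2, other window: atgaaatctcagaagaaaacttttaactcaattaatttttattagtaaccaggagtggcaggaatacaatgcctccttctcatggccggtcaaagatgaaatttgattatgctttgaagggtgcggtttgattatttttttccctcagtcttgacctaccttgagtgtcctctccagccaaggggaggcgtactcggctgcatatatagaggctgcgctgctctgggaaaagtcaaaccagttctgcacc

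The letters ACGTG, searched on both strands, were found in 1 of the 9 windows, that of *Tfrc*, where they begin 31 bases before the start. Of all 33469 RefSeq promoter windows of this length, 16.6% hold them. The letters TGACNNNGC, a core of the antioxidant response element, were found in the window of *Hpx* alone, compared with 10.1% of all windows. The letters TTCNNNGAA, which STAT factors bind, were found in the window of *Hamp* alone, compared with 7.67% of all windows. A match describes the letters and says nothing about binding. GC content was 64.8% in the window of *Tfrc*, and 68.0% and 43.6% in those of *Slc11a2*, compared with a median of 51.2% over all windows.

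Ratios between genes of the same library do not depend on how the libraries are scaled to each other. The ratio of *Tfrc* to *Tf* in FPKM was 1.72 in CTRL and 0.696 in IR12, so the receptor transcript lay above that of its ligand in CTRL and below it in IR12. The ratio of *Slc11a2* to *Tfrc* was 0.191 in CTRL and 0.828 in IR12, which is 4.34 times as high. The ratio of *Heph* to *Cp* was 0.0766 in CTRL and 0.0172 in IR12, which is 4.45-fold lower. In both libraries *Cp* thus had by far the higher level per length. By contrast, the ratio of *Cp* to *Tf* was 1.23 in CTRL and 1.17 in IR12, and these genes lay close to each other in both.

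**Figure D2:**
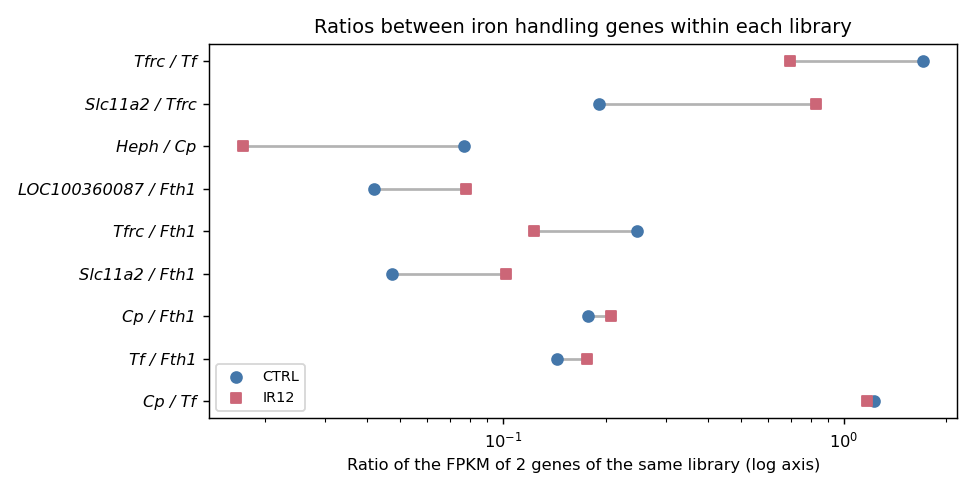
Ratio of the FPKM of 2 genes of the same library on a log axis, in CTRL (circles) and IR12 (squares). The ratios of *Slc11a2* to *Tfrc* and of *Heph* to *Cp* lie farthest apart between the libraries, and that of *Cp* to *Tf* lies closest.

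Against *Fth1*, the iron handling gene with the highest level, the same order was seen. The ratio of *Tfrc* to *Fth1* was 0.247 in CTRL and 0.123 in IR12, and that of *Slc11a2* to *Fth1* was 0.0472 and 0.102. The ratios of *Cp* and *Tf* to *Fth1* were 1.17 and 1.23 times as high in IR12 as in CTRL. The plot of ratios within each library shows these pairs together.

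*Fth1* encodes the ferritin heavy chain, the chain with ferroxidase activity. Its FPKM was 427 in CTRL and 422 in IR12, at the 98.7th percentile of the genes counted in both libraries, and its log2 ratio was -0.02. On the TPM scale the log2 ratio was 0.63, close to the 0.60 of the median gene, so the sign of its ratio depends on the scale. The table lists *Fth1* on chromosome 1 from 226030875 to 226049929, a locus that it shares with *Best1* and *AABR07006255.1*. RefSeq has 7 entries named as *Fth1* or as copies of it, and how reads of near-identical copies were counted is not given in the sources used here.

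The ferritin light chain needs a check of its row. The row with the symbol *Ftl1* lies on chromosome 5 from 152325871 to 152326778 and was listed at 0 in CTRL and at 0.0539 in IR12, about the worth of 1 read. In the deposited table this row follows *Cd52*, and in RefSeq the gene after *Cd52* is *LOC100360087*. The row *LOC100360087* of the table lies on chromosome 1 from 101448331 to 101449829 and follows *Gys1*, and in RefSeq the gene after *Gys1* is *Ftl1*. *Bax* is among the next genes in both. The symbols are thus placed the other way round in the table and in RefSeq. By its neighbours, the row *LOC100360087* lies where RefSeq places *Ftl1*. RefSeq has 22 entries named as *Ftl1* or as copies of it, so the levels of both rows are uncertain.

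*LOC100360087* is outside the rule for naming genes and was looked at after its values were seen. Its FPKM was 17.8 in CTRL and 32.8 in IR12, which is a log2 ratio of 0.85 and 1.84 times the level in CTRL, just inside 2-fold. The ratio of this row to *Fth1* was 0.0418 in CTRL and 0.0777 in IR12. On the TPM scale its log2 ratio was 1.46, past 2-fold. With this row in place of *Ftl1*, the iron handling genes still had 1 gene higher and 2 lower, and their median log2 ratio was 0.21. A further ferritin-like row, *Ftl1l1*, was listed at 0 in both libraries.

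*Slc40a1* encodes ferroportin, the exporter of iron from cells. It lies on chromosome 9 from 52894365 to 52912293, and its FPKM was 0.128 in CTRL and 0.0125 in IR12. With a transcript of 939 bases these levels would come from 1.46 and 0.243 reads. Since 0.243 is less than a single read, this length does not give the reads of *Slc40a1*, and a longer transcript would hold more. Both levels lay under the minimum FPKM of 1, so no difference was read from them. *Hamp*, on chromosome 1 from 89368021 to 89369960, encodes hepcidin, which is made mainly by the liver, and was listed at 0 in both libraries. Since all 37 mitochondrial genes were listed at 0 too, this 0 cannot be read as absence of the transcript.

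*Hpx* encodes hemopexin, a plasma protein that binds free heme. The gene lies on chromosome 1 from 170423483 to 170431073, and its FPKM was 0.190 in CTRL and 0.279 in IR12, under the minimum of 1 in both. In both libraries the transcripts of transferrin, its receptor, DMT1 and the ferritin heavy chain thus lay above an FPKM of 20, and those of ferroportin and hemopexin lay under 1.

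**Figure D3:**
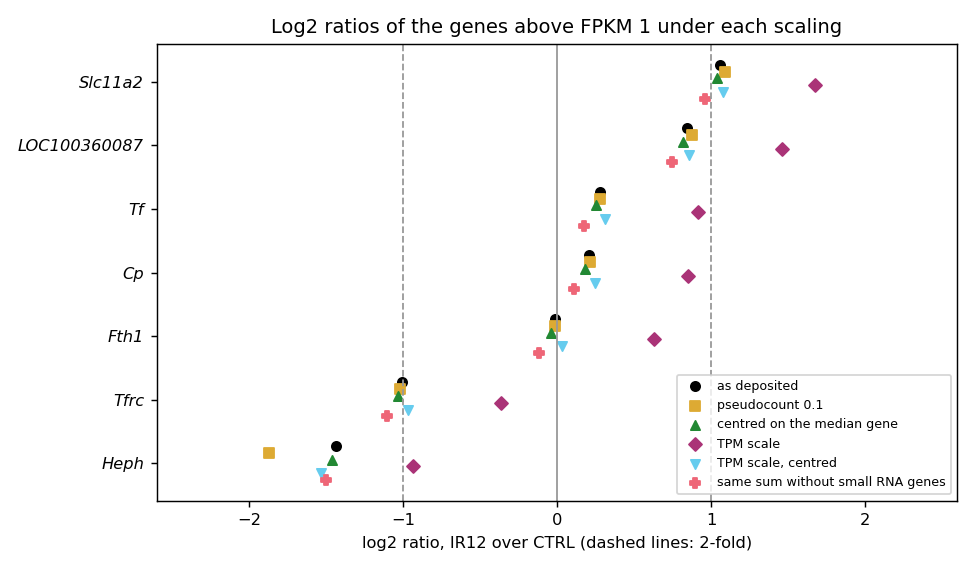
Log2 ratio, IR12 over CTRL, of the 6 iron handling genes with an FPKM of at least 1 and of the row *LOC100360087* under each scaling and pseudocount, with dashed lines at 2-fold. On the TPM scale the points of all 7 lie to the right of those as deposited, and the order of the genes is much the same.

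The plot of log2 ratios by scaling shows which genes cross a limit. *Heph* was below 0 under every scaling shown, between -1.87 with a pseudocount of 0.1 and -0.93 on the TPM scale. *Slc11a2* was above 0 under every scaling shown, between 0.96 and 1.68. *Cp* lay between 0.11 and 0.85 and *Tf* between 0.18 and 0.91, and neither reached 2-fold under these scalings. *Tfrc* was below 0 under each of them, although it was inside 2-fold on the TPM scale (-0.37) and, at -0.97, on that scale centred on the median gene.

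Around these genes, 53 further genes of iron and heme handling were listed by role, all of them were matched, and 41 of their 54 rows had an FPKM of at least 1 in a library. Of the 41, 4 were at least 2-fold higher in IR12 (9.76%, compared with 6.56% of all genes counted) and 2 were at least 2-fold lower (4.88%, compared with 6.12%). Their median log2 ratio was 0.10, the same as that of the iron handling genes to this precision. With the TPM scale, 9 of the 41 were higher and 0 lower, compared with 20.7% and 3.21% of all genes counted on that scale.

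**Figure D4:**
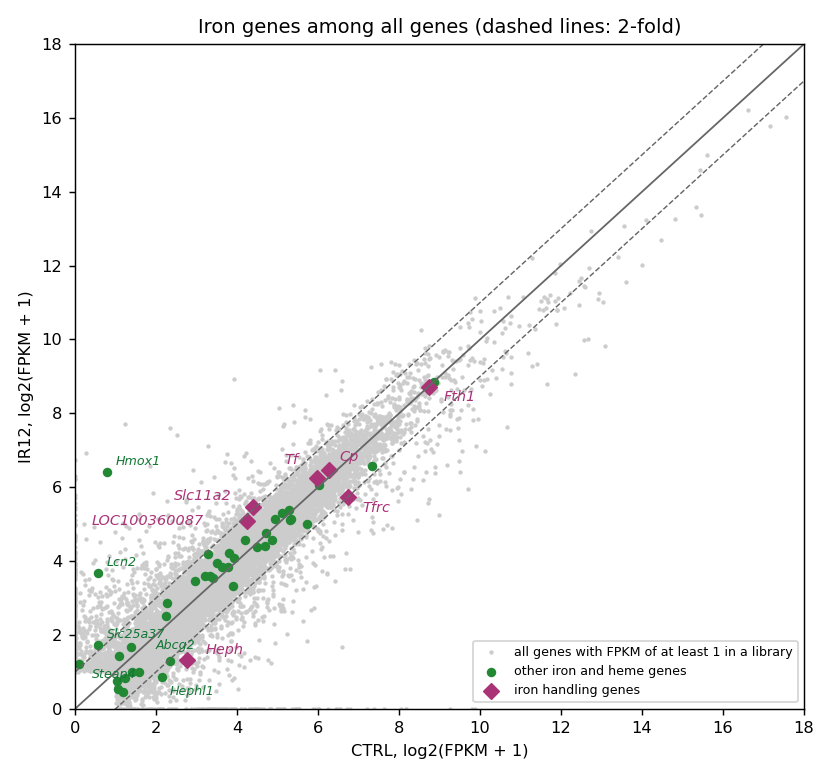
Log2(FPKM + 1) in CTRL and IR12 for all genes with an FPKM of at least 1 in a library (grey), the other iron and heme genes (green circles) and the iron handling genes with the row *LOC100360087* (purple diamonds), with dashed lines at 2-fold. *Hmox1* and *Lcn2* lie far above the upper line, and *Heph* and *Hephl1* lie below the lower line.

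Among the genes of uptake and reduction, which include the endosomal ferrireductases, the median log2 ratio was -0.18 and none was at least 2-fold lower. Of the 8 counted, 1 was at least 2-fold higher (12.5%, compared with 6.56% of all genes counted). It was *Steap4*, with an FPKM of 0.0677 in CTRL and of 1.33 in IR12, a gene that was inside 2-fold, at 0.65, on the TPM scale centred on the median gene. *Cybrd1*, a ferrireductase gene with 1.26 in CTRL and 0.359 in IR12, was at least 2-fold lower on that centred scale (-1.04) and with a pseudocount of 0.1 (-1.57). The TPM scale without centring put 3 of the 8 past 2-fold, all higher, where 20.7% of all genes counted were at least 2-fold higher. *Steap2*, which had the highest level in this group, had 24.6 in CTRL and 20.4 in IR12, and *Steap3* had 1.65 and 1.01. The zinc and iron importer gene *Slc39a14* had 10.3 in CTRL and 14.3 in IR12.

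All 3 iron sensing genes were within 2-fold as deposited, with a median log2 ratio of -0.01. *Fbxl5*, which encodes an iron-sensing ubiquitin ligase subunit, had an FPKM of 465 in CTRL and of 462 in IR12. The iron regulatory protein genes *Aco1* and *Ireb2*, whose products bind the transcripts of *Tfrc* and of ferritin, had 12.9 and 38.5 in CTRL and 17.7 and 33.7 in IR12, and *Aco1* was past 2-fold on the TPM scale (1.02). In the group of ferritin release, iron chaperones and ferroxidase paralogs, *Hephl1* was the 1 gene of 3 past 2-fold as deposited. *Ncoa4*, the receptor that takes ferritin to the lysosome, had 63.8 in CTRL and 65.8 in IR12, and the chaperone gene *Pcbp2* had 161 and 93.4.

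Of 6 genes that act on hepcidin, none was past 2-fold as deposited with a pseudocount of 1, and the median log2 ratio was -0.21. *Hfe*, with an FPKM of 1.08 in CTRL and of 0.442 in IR12, was at -1.12 with a pseudocount of 0.1, and *Id1* was at 1.07 on the TPM scale. *Bmp2*, whose product raises hepcidin in the liver, had an FPKM of 1.97 in CTRL and of 0.978 in IR12, and *Bmp6* was under the minimum with 0.886 and 0.403. *Neo1* had 51.6 in CTRL and 31.1 in IR12, so transcripts of this branch were present although *Hamp* itself was listed at 0.

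Heme genes held the gene with the highest ratio of the 41. *Hmox1*, which encodes the inducible heme oxygenase that frees iron from heme, had an FPKM of 0.714 in CTRL and of 84.0 in IR12, which is a log2 ratio of 5.63. The constitutive *Hmox2* had 33.8 in CTRL and 38.2 in IR12, so in IR12 the inducible gene had the higher level. *Abcg2*, whose product exports heme and other porphyrins, had 4.11 in CTRL and 1.44 in IR12 and was the 1 heme gene of 11 that was at least 2-fold lower, a call that the TPM scale ended for it and for *Hephl1*. The median log2 ratio of the 11 was 0.21. The scavenger partner of *Hpx* for hemoglobin, *Hp*, had 1.13 in CTRL and 1.71 in IR12.

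In the mitochondrial group, 1 of 8 genes was at least 2-fold higher (12.5%, compared with 6.56% of all genes counted) and none was lower. The higher gene was *Slc25a37*, which encodes mitoferrin-1 and had an FPKM of 0.473 in CTRL and of 2.33 in IR12. It was inside 2-fold, at 0.83, on the TPM scale centred on the median gene. Without centring, that scale put 2 of the 8 at least 2-fold higher, where 20.7% of all genes counted were. *Lcn2*, whose product binds iron-laden siderophores, had 0.473 in CTRL and 11.8 in IR12, which is a log2 ratio of 3.12. Its receptor gene *Slc22a17* had 39.1 in CTRL and 34.0 in IR12, and the lactoferrin gene *Ltf*, the third of this group, was listed at 0 in both.

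Markers of several cell types also differed between the libraries. The 6 markers of Müller glia, the main glia of the retina and a known site of iron transport proteins, summed to an FPKM of 1108 in CTRL and of 227.5 in IR12, and none was at 0. The most abundant was *Glul*, with 754 in CTRL and 126 in IR12. All 6 were at least 2-fold lower as deposited, and on the TPM scale all 6 were below 0 and 4 were at least 2-fold lower. *Heph*, *Tfrc*, *Hephl1* and *Abcg2* were also at least 2-fold lower as deposited, while *Cp* and *Tf* were not. The part of the Müller glia markers in these results was not tested.

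The 6 lens markers summed to an FPKM of 2782 in CTRL and of 331 in IR12, with *Cryba1* the most abundant at 1614 and 196. None was at 0, all 6 were at least 2-fold lower as deposited, and 5 were on the TPM scale. Of the 5 genes nearest to *Heph*, 1 is on this list. The part of lens RNA in the level of *Heph* in CTRL was not tested.

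Most leukocyte markers counted were at least 2-fold higher in IR12, as were *Hmox1* and *Lcn2* and, though not under every scaling, *Slc11a2*, *Slc25a37* and *Steap4*. Of 10 markers, 9 had an FPKM of at least 1 in a library, and 5 of these 9 were at least 2-fold higher. Of the other 4, *Cd68* had a log2 ratio of 0.88, *Aif1* of 0.38, *Csf1r* of 0.03 and *Cx3cr1* of -0.36. The 10 markers summed to an FPKM of 21.9 in CTRL and of 134.9 in IR12, *Lyz2* was the most abundant with 9.73 and 76.9, and *S100a8* was at 0 in CTRL. Their part in the results of these iron genes was not tested.

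Markers of blood, pigment epithelium and oligodendrocytes were described in the same way. Of 8 blood symbols 4 were matched, 2 of them with an FPKM of at least 1 in a library, and they summed to an FPKM of 28.1 in CTRL and of 52.5 in IR12. *Hbb* was the most abundant, with 20.4 in CTRL and 35.1 in IR12, and *Hba-a2* was at least 2-fold higher with 6.77 and 17.1. The other matched blood markers were under 1 in both libraries, *Hba-a1* with 0.859 in CTRL and 0.168 in IR12 and *Slc4a1* with 0.0455 and 0.0266. The 7 pigment epithelium markers summed to 91.0 in CTRL and 108 in IR12, led by *Ttr* with 61.8 and 87.4. *Rpe65* was at least 2-fold lower as deposited, with 11.1 and 4.88. On the TPM scale none of these markers was at least 2-fold lower and 1 was at least 2-fold higher. Of the oligodendrocyte markers, whose cells make transferrin in the brain, 2 of 5 reached an FPKM of 1 and neither was past 2-fold, and the 5 summed to 12.1 in CTRL and 11.9 in IR12, with *Mobp* at 0 in CTRL.

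Hepatocytes are the main source of plasma transferrin, ceruloplasmin, hepcidin and hemopexin, and their markers other than *Ttr*, which pigment epithelium also expresses, were low. *Alb* had an FPKM of 0.0695 in CTRL and of 0.0204 in IR12, and *Fga* was at 0 in CTRL. The 5 hepatocyte markers summed to 63.8 in CTRL and 89.1 in IR12, nearly all of it *Ttr*. Of 4 astrocyte markers, *Gfap* was at least 2-fold higher, with 2.95 in CTRL and 21.9 in IR12, and *S100b*, the most abundant in CTRL, was at least 2-fold lower with 25.8 and 5.81. The astrocyte markers summed to 28.8 in CTRL and 27.8 in IR12, and *Pax2* was at 0 in CTRL. The part of these lists in the levels of *Cp*, *Tf* and *Hpx* was not tested.

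**Figure D5:**
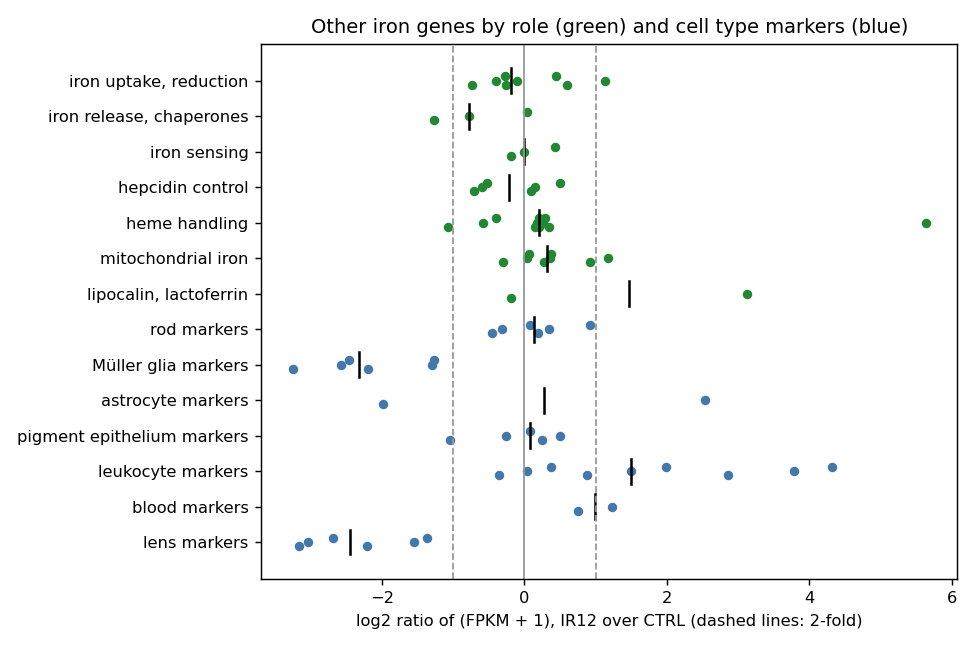
Log2 ratio of (FPKM + 1), IR12 over CTRL, of each gene with an FPKM of at least 1 in a library, for the other iron genes by role (green) and for cell type markers (blue), with black bars at the median of each list and dashed lines at 2-fold. All points of the Müller glia and lens lists lie left of the lower line, and the medians of the larger iron lists lie between the lines.

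The plot of ratios by list sets the iron genes beside the markers. The medians of the iron groups with more than 2 genes counted lay between -0.78 for the release and chaperone group and 0.32 for the mitochondrial group, compared with -2.33 for Müller glia, -2.45 for lens and 1.50 for leukocytes. *Gapdh*, which served as RT-qPCR reference in the study, had a log2 ratio of -0.05 as deposited and 0.59 on the TPM scale. *Fth1* lay next to it on both scales, at -0.02 and 0.63.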

How the data were processed

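Total RNA of 2 rat retina samples was sequenced in single-end libraries, and for both the authors deposited gene-level FPKM on rn6. The submitters' processing notes name STAR 2.5.2b and Cuffdiff 2.2.0 without a role, and the annotation behind these FPKM is not given in the sources used here. Reads were shortened to their first 100 bases per the paper. The sample labels name a stranded total RNA kit and the series text an mRNA kit, both with removal of ribosomal RNA. Starts in the table are 0-based and were shifted by 1.

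Iron handling genes were taken by symbol. The members and lists were chosen with earlier results of these data known. Differences are log2 ratios of (FPKM + 1), counted among genes with an FPKM of at least 1 in either library and called from 2-fold. No test was possible with 1 library per group. Named are the members, the genes of the lists (other iron genes by role, NRF2 targets, acute phase genes, hypoxia targets and markers of rod, Müller glia, astrocyte, pigment epithelium, oligodendrocyte, blood, leukocyte, hepatocyte and lens), rows starting with Fth or Ftl, *Gapdh* and the 5 genes nearest to *Heph*. Outside this rule, *LOC100360087*, genes that neighbour or share a listed locus with a member, and the locus comparison with RefSeq were chosen after the values were seen. Some genes of the lists are not reported here by name. *Hjv* and *Hfe2* were both listed and are 1 gene, found as *Hfe2*, and *Meltf* was found as *Mfi2*. *Nfs1* has 2 rows.

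As alternatives, ratios were centred on the median gene or computed with a pseudocount of 0.1, on the TPM scale (each library rescaled to the same sum), after rescaling without small non-coding RNA genes, recognised by symbol (microRNA, Y, 7SK, signal recognition particle, small nucleolar and small nuclear RNA genes), and with a minimum FPKM of 5 or none. The worth of 1 read was taken from the lowest repeated FPKM of genes with the same locus length. The computation of the ratios, of the 2-fold counts and of the centring was tested on simulated data, and the other steps were not. Python 3.11.15, numpy 2.4.6, pandas 2.3.3 and matplotlib 3.10.9 were used.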

Additional observations from a re-analysis of the deposited data

How the results depend on the processing

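No replicate could be left out, since each group has 1 library. No paired analysis was possible because each group has 1 library. In all, 15 results were computed again, which gave 94 values. Of these, 72 had the sign and the call of the first value, or lay within 1.5 times for a count and within 0.1 for a median log2 ratio. The counts with no minimum FPKM were bound to be the same. With a pseudocount of 1, a gene under an FPKM of 1 in both libraries cannot reach 2-fold. The TPM scale gave 2817 genes higher and 436 lower, 0 iron handling genes lower, 9 other iron genes higher and 0 lower, and log2 ratios of -0.93 for *Heph*, -0.37 for *Tfrc*, 0.63 for *Fth1* and 1.46 for *LOC100360087*. The median log2 ratio was 0.74 over the iron handling genes and 0.68 over the other iron genes on that scale. The median of genes with an FPKM of at least 1 in both libraries was 0.60 there. A common sum does not fix this median, which was -0.06 after rescaling to the same sum without small non-coding RNA genes. The TPM scale centred on the median gene, chosen after seeing the data, gave 1 iron handling gene lower and 2 other iron genes higher. Of all genes counted, 7.04% were lower and 5.64% higher on that centred scale. The log2 ratios there were -0.97 for *Tfrc* and 0.030 for *Fth1*. With small non-coding RNA genes left out, 0 iron handling genes were higher, compared with 5.49% of all genes counted. *Slc11a2* was at 0.96 there, and the median of the iron handling genes was -0.0027. A pseudocount of 0.1 gave 4 of the 41 other iron genes lower, where 8.65% of all genes counted were lower. A minimum FPKM of 5 left 2 other iron genes higher and 0 lower, because fewer genes were counted. Of all genes counted at that minimum, 6.37% were higher and 6.07% lower. The row *LOC100360087* in place of *Ftl1*, also chosen after seeing the data, left the counts of iron handling genes as they were and moved their median to 0.21, because 1 more gene was counted. Depth limits *Ftl1*, whose level in IR12 lies near the worth of 1 read. *Slc40a1* lay under the minimum FPKM of 1 in both libraries, and its number of reads is not known. For the other changes the cause was not tested.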

Other observations

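Genes activated by NRF2, the factor of the antioxidant response that also acts on ferritin and heme oxygenase genes, lay mostly within 2-fold as deposited. Of 10 listed genes, 8 had an FPKM of at least 1 in a library, and 1 of the 8 was at least 2-fold higher in IR12 and none lower (12.5%, compared with 6.56% of all genes counted). It was *Txnrd1*, the thioredoxin reductase gene, with an FPKM of 17.5 in CTRL and of 48.4 in IR12. *Prdx1* had the highest level, with 111 in CTRL and 153 in IR12, and *Slc7a11*, the cystine importer gene, had 19.2 and 19.4. The median log2 ratio of the 8 genes was 0.39. With the TPM scale, 4 of the 8 were at least 2-fold higher, where 20.7% of all genes counted were, and the median was 0.97. Centred on the median gene, that scale gave 1 of 8 and a median of 0.37.

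Hypoxia targets, a group to which *Tfrc* and *Tf* are also known to belong, likewise lay mostly within 2-fold as deposited. Of 9 genes counted, none was at least 2-fold higher and 1 was lower (11.1%, compared with 6.12% of all genes counted), with a median log2 ratio of -0.46. None was past 2-fold on the TPM scale, where their median of 0.19 was above 0 but below the 0.60 of the median gene. The sign of their median thus depends on the scale. Centred on the median gene, the TPM scale gave 1 lower gene and a median of -0.41. *Bnip3*, a mitophagy receptor gene, was the lower gene, with an FPKM of 130.1 in CTRL and of 49.0 in IR12. The glycolytic genes *Ldha* and *Pgk1* had 629 and 652 in CTRL and 696 and 474 in IR12. Of 9 acute phase symbols, a group in which *Cp*, *Hpx* and *Hamp* are often placed, 7 were matched and 2 were counted. *C3* had an FPKM of 1.85 in CTRL and of 4.31 in IR12 and *Serping1* had 4.39 and 9.03, both with a log2 ratio of 0.90, just inside 2-fold. Both were at least 2-fold higher with a pseudocount of 0.1 (median 1.10) and on the TPM scale (median 1.38). Neither was past 2-fold with that scale centred on the median gene (median 0.78), with the deposited ratios centred (0.87) or with small non-coding RNA genes left out (0.81).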
